A study of Mus musculus with 6 samples.

Results

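Small nucleolar RNA (snoRNA) genes were compared between freshly sorted and cultured mouse muscle satellite cells, the resident stem cells of skeletal muscle. The members are the genes whose symbol in the platform annotation begins with Snord, Snora or Scarna followed by a digit and which have a probe set given to that gene alone. There are 54 of them among 19938 genes tested, namely 31 C/D box genes (Snord), 20 H/ACA box genes (Snora) and 3 Cajal body RNA genes (Scarna). Genes were thus chosen by symbol, and for the 6 genes with several probe sets the one kept was selected on its mean level over the 6 arrays, the highest being taken. For Scarna17, Snora30 and Snord118 the 2 probe sets held the same values on every array. For Snora21, Snora3 and Snord58b they differed by at most 0.31 on any array, and no gene had probe sets of opposite sign.

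The cells came from hindlimb, abdominal and triceps muscles of 2-month-old C57BL/6J mice and were sorted for beta-1 integrin and CXCR4, without CD45, CD31, CD11b, Ter119 and Sca1. Of the 6 arrays, 3 are of cells taken straight after the sort (Fresh) and 3 of cells kept for 5 days on collagen and laminin in medium with 20% horse serum and 5 ng/ml of basic fibroblast growth factor added each day (Cultured). The labels name no transgene or mutation and do not tie an array to one of the 3 mice, so p-values measure only how far these arrays spread, and part of that spread may be technical. Arrays are called Fresh 1 to 3 and Cultured 1 to 3 by their replicate number. Values are log2 expression levels per probe set as deposited, each group mean is of 3 arrays (n = 3), and a difference is the mean of the cultured arrays minus the mean of the fresh arrays.

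Guide snoRNAs are short RNAs of the nucleolus that pair with other RNAs and direct enzymes to single nucleotides. C/D box RNAs bind fibrillarin and direct ribose methylation, and H/ACA box RNAs bind dyskerin and direct the conversion of uridine to pseudouridine, mostly on ribosomal RNA. A few snoRNAs are needed instead for cutting the ribosomal precursor, and Cajal body RNAs guide the same modifications on spliceosomal RNAs. In mammals most are trimmed out of introns of host genes, many of which encode ribosomal proteins or are non-coding transcripts, and they last far longer than the host intron. A probe set of the array does not tell a trimmed snoRNA from the same stretch in an unspliced host transcript.

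In bulk RNA a fall can mean, among other things, fewer RNA molecules per cell or fewer cells that hold them, which cannot be told apart. The values are relative levels and give no amount per cell. The satellite cell markers were present on all arrays, with all 12 listed genes above background in both groups and 8 of them lower in culture, among them Pax7 at -1.33. A level is called background up to 3.16 in fresh and 3.23 in cultured cells, under which lie 95% of 1194 odorant and pheromone receptor genes. Of the listed markers of other cells, those of fibro-adipogenic cells moved most with the groups, with 3 of 9 measured lower and none higher in culture. Their summed level on a linear scale was 408 to 697 on the fresh and 119 to 127 on the cultured arrays, with mean levels in fresh and cultured cells of 7.39 and 2.87 for Dcn, 7.44 and 2.42 for Dpt, both within background in culture, and 3.35 and 3.62 for the defining marker Pdgfra, and their part in the snoRNA values was not tested. Of 10 endothelial markers 5 were within background in both groups, Pecam1 and Cdh5 among them, and Tie1, Cldn5 and Vwf were above it in both, while Tek fell from 3.34 to 2.58. Of 11 blood cell markers 6 were within background in both groups, Ptprc, Itgam and Csf1r among them, and Cd3e, Tyrobp and Laptm5 were above it in both, Laptm5 rising from 3.16 to 4.23. The summed endothelial level was 81.9 to 84.6 on the fresh and 92.0 to 96.5 on the cultured arrays and the summed blood cell level 83.4 to 89.0 and 89.1 to 98.4, and the part of these cells was not tested. Summed tenocyte markers were at 212, 76.0 and 54.5 on Fresh 1, 2 and 3 and at 88.9 to 109 on the cultured arrays. Fresh 1 thus stood apart, and the part of these cells was not tested. Bright genes other than the members were dimmer on Cultured 2 and 3: those with a mean of 8 or more over the 6 arrays had medians of -1.66 and -1.16 there relative to fresh cells, and of 0.04 for Cultured 1.

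Nearly all snoRNA genes were lower after 5 days in culture. The median log2 fold change of the 54 members was -2.13, against 0.04 over all genes tested, and 53 of 54 lay below 0. With limma and Benjamini-Hochberg adjustment over all 19938 genes at a threshold of 0.05, 37 members fell and none rose. Of all genes tested, 3.37% were called lower and 0.953% higher; higher calls made up 22.1% of all calls, and 38.8% after quantile normalization. The fitted fall of all 37 called members was at least 2-fold, but Snord37 and Snord58b were within background in culture, where their falls can only be read as at least 1.67-fold and 1.17-fold. The 3 cultured values lay wholly below the 3 fresh values for 46 of the 54 members, against 10.3% of all genes tested.

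**Figure D1:**
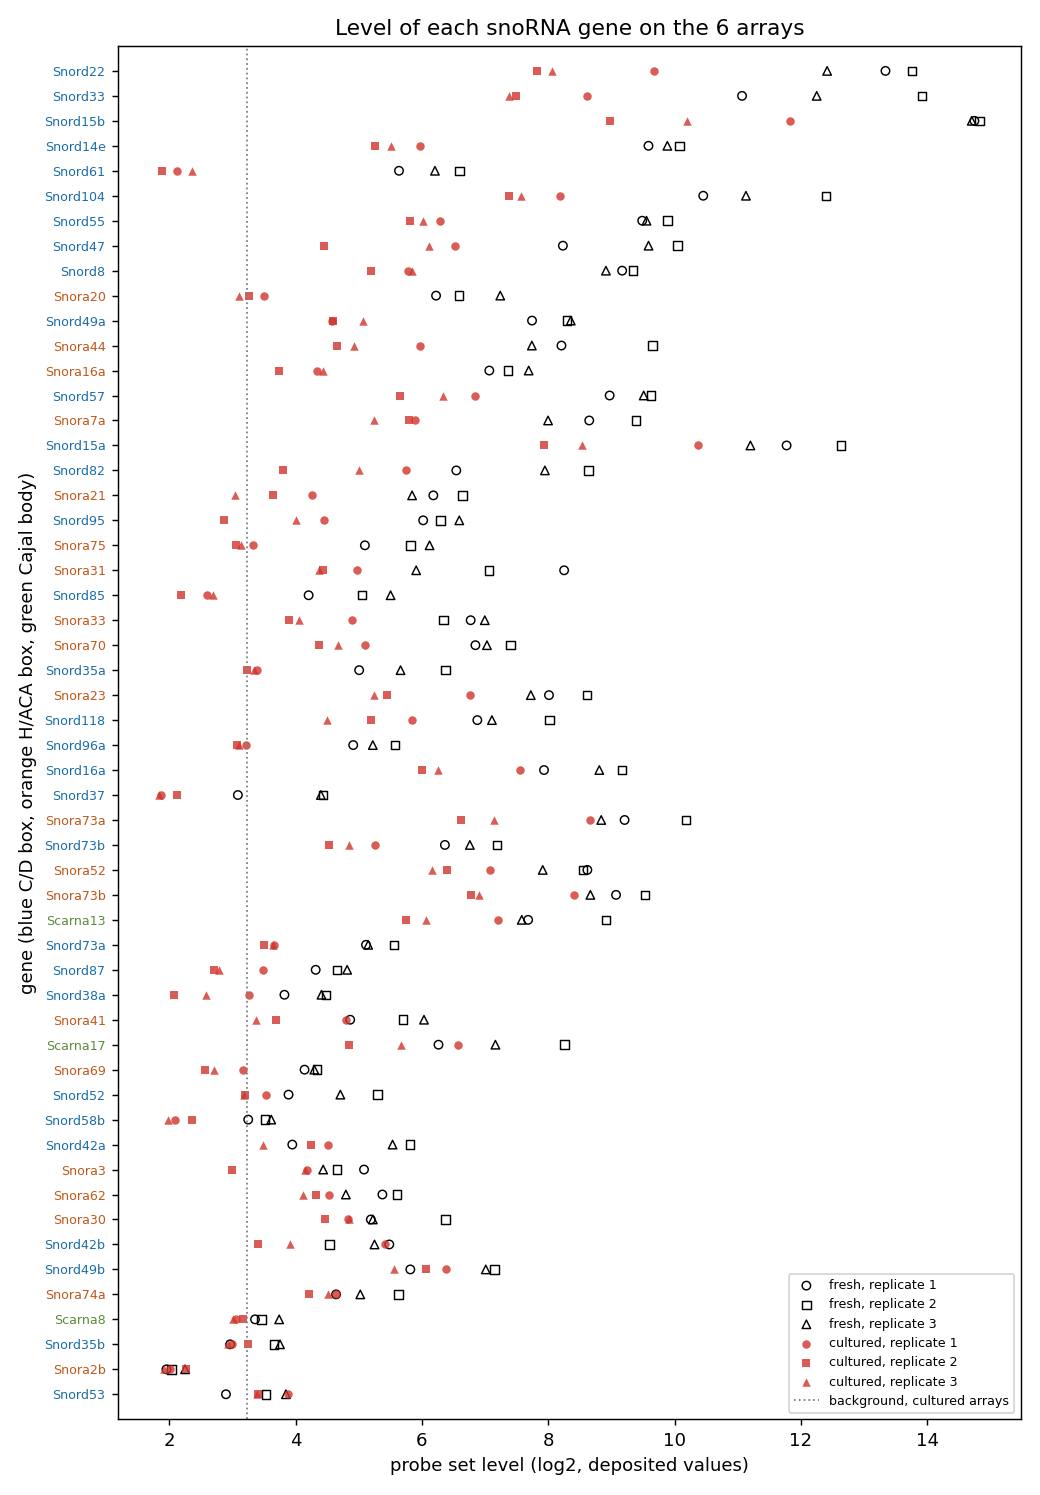
Level of each of the 54 snoRNA genes (rows, ordered by fold change, the largest fall on top) on the 6 arrays; the x axis is the deposited log2 value, open black symbols are fresh and red symbols cultured arrays, and the dotted line is background on the cultured arrays (3.23). For 46 genes every red symbol lies to the left of every black one.

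The C/D box genes had a median log2 fold change of -2.36, with quartiles of -3.57 and -1.60. Of the 31 genes 25 fell and 26 had groups that did not overlap. The H/ACA box genes had a median of -2.12, with quartiles of -2.53 and -1.32; 12 of 20 fell and 18 did not overlap. None of the 3 Cajal body RNA genes passed the test, with a median of -1.53. By array, the C/D box median level was 6.02, 7.15 and 6.76 in fresh cells (Fresh 1, 2 and 3) and 5.26, 4.24 and 4.50 in cultured cells. The H/ACA box median level was 6.50, 6.61 and 6.56 before and 4.81, 4.27 and 4.40 after culture. The difference between the classes was not tested.

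Every cultured array was below the fresh mean in both large classes. On Cultured 1 the median difference from the fresh mean was -1.96 for C/D box and -1.32 for H/ACA box genes, on Cultured 2 it was -2.63 and -2.60, and on Cultured 3 it was -2.35 for each. The count of members below the fresh mean was 52, 53 and 54 of 54 on Cultured 1, 2 and 3, and the count below all 3 fresh values was 46, 49 and 53. Over all 19938 genes the median differences were 0.05, 0.00 and 0.03. Of all genes, 42.9%, 49.5% and 46.4% lay below the fresh mean on Cultured 1, 2 and 3. Those below all 3 fresh values numbered 4539, 6068 and 5266 of 19938. Cultured 1 thus held the smallest differences, and it had the highest of the cultured values for 43 of 54 members.

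**Figure D2:**
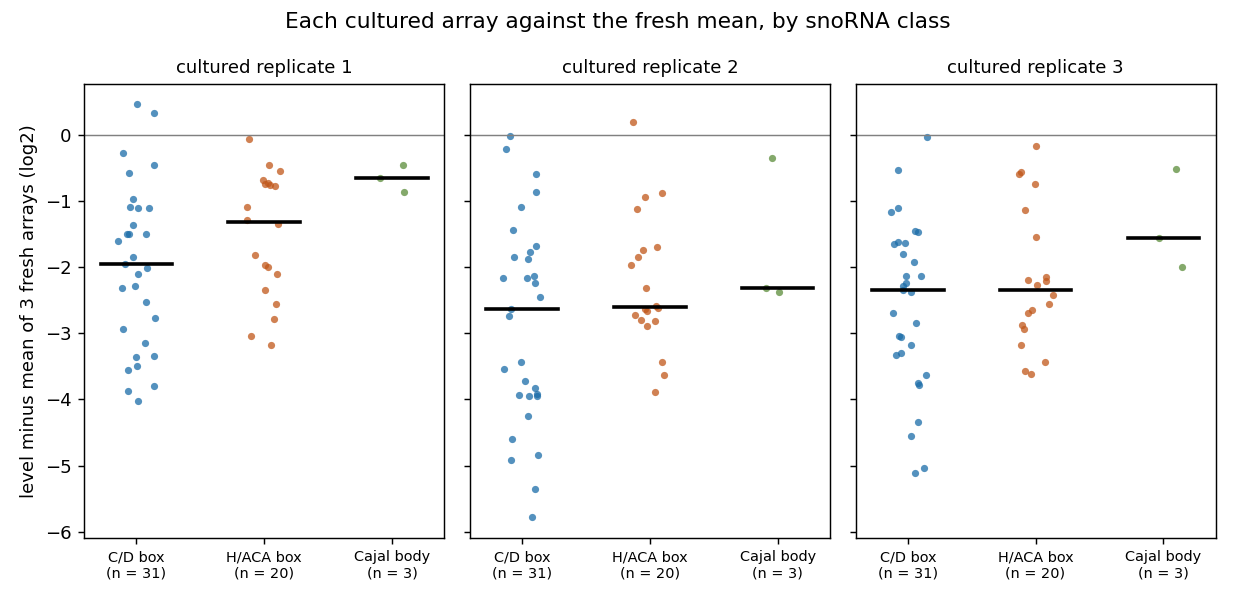
Level on each cultured array minus the mean of the 3 fresh arrays (log2, y axis) for the 31 C/D box, 20 H/ACA box and 3 Cajal body genes; points are genes and black bars are class medians. The medians of the C/D and H/ACA box genes lie between -2.63 and -1.32 on all 3 arrays.

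The fresh arrays differed among themselves, and the median level had an SD over them of 0.57 for C/D box and 0.0585 for H/ACA box genes, a difference that was not tested. Fresh 1 held the lowest of the 3 fresh values for 26 of 31 C/D box genes and Fresh 2 the highest for 23. For H/ACA box genes the lowest value was on Fresh 1 for 9 of 20 and on Fresh 3 for 10. Against the mean of the other fresh arrays, the C/D box median was -0.62 on Fresh 1, 0.51 on Fresh 2 and 0.21 on Fresh 3. The H/ACA box median was -0.18, 0.38 and -0.50 in the same order. The small SD of the H/ACA box median level thus does not mean that single genes of this class were steady. The median SD of a member over 3 arrays was 0.48 in the fresh and 0.40 in the cultured group.

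The largest falls were all of C/D box genes. Snord22, which lies in the non-coding gene Snhg1 and is required for maturation of the small ribosomal subunit RNA, read 13.34, 13.76 and 12.42 in fresh cells and 9.68, 7.82 and 8.05 in cultured cells. All cultured values were far below all fresh values, a log2 fold change of -4.66 ± 0.52 (SE) or 25.2-fold, with an adjusted p of 0.0025. Snord33, from an intron of Rpl13a and tied in other work to lipid-induced oxidative stress, read 11.07, 13.91 and 12.25 against 8.61, 7.49 and 7.38. The fresh values of Snord33 spread widely, with an SD of 1.43, but stayed above the cultured ones, and the log2 fold change was -4.59 ± 0.67 (SE). Its call was lost without Cultured 3, at an adjusted p of 0.0520.

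Snord15a and Snord15b, methylation guides of the large subunit RNA, lie in different introns of the ribosomal protein gene Rps3. Snord15b read 14.75, 14.83 and 14.71 in fresh cells and 11.83, 8.98 and 10.20 in cultured cells. The fresh values were close to the highest gene level on the fresh arrays, 14.88. Its log2 fold change of -4.42 ± 0.61 (SE) can thus be understated. It can also be overstated, since the highest gene level was only 12.17 on Cultured 2 and 13.92 on Cultured 3. Snord15a fell by 2.93 ± 0.62 (SE) on the log2 scale from a fresh mean of 11.87, with an adjusted p of 0.0413. It lost its call without any 1 array other than Cultured 1 (adjusted p up to 0.171).

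Several C/D box genes fell with little spread in either group. Snord14e, of the U14 family that takes part in both cutting and methylation of the small subunit RNA, read 9.59, 10.08 and 9.89 in fresh and 5.97, 5.26 and 5.51 in cultured cells. Its fall of 4.27 ± 0.22 (SE) on the log2 scale was 19.3-fold. Snord55, a guide of the large subunit RNA, read 9.49, 9.88 and 9.56 against 6.29, 5.81 and 6.01, a log2 fold change of -3.60 ± 0.18 (SE). Snord8, which guides a spliceosomal RNA instead of a ribosomal one, read 9.17, 9.34 and 8.91 against 5.78, 5.19 and 5.84, a log2 fold change of -3.54 ± 0.21 (SE). In each of these 3 genes the groups were far apart and the SD within a group was at most 0.36.

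Snord61, a guide of the small subunit RNA from the RNA-binding protein gene Rbmx, went from well above to within background. It read 5.64, 6.59 and 6.21 in fresh cells and 2.11, 1.89 and 2.36 in cultured cells, so that its fall is better read as at least 7.56-fold, the fresh mean against the background of the cultured arrays. Of the 54 members, 53 were above background in fresh and 42 in cultured cells, and the 11 lost from that range included Snora75 (at least 5.47-fold), Snord96a (at least 4.03-fold) and Snord85 (at least 3.23-fold). Snora2b was within background in both groups.

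Among the other C/D box genes, Snord104, in a non-coding gene, read 10.45, 12.39 and 11.13 in fresh and 8.18, 7.37 and 7.57 in cultured cells, at -3.62 ± 0.46 (SE). Snord47, in Gas5, read 8.23, 10.04 and 9.59 against 6.52, 4.45 and 6.11, at -3.59 ± 0.61 (SE); it lost its call without Fresh 2, Fresh 3 or Cultured 3 (adjusted p up to 0.0867). Both kept a gap between the groups. Snord57, in the gene of the C/D core protein Nop56, was at -3.09 ± 0.31 (SE). Snord118, the U8 RNA needed for maturation of the large subunit RNAs and the only member with no gene around it, read 6.88, 8.02 and 7.11 against 5.84, 5.199 and 4.50. Its fall of 2.16 ± 0.39 (SE) on the log2 scale lost its call without Fresh 2, Fresh 3, Cultured 2 or Cultured 3 (adjusted p up to 0.0795).

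The H/ACA box genes with the largest falls were Snora20, Snora44 and Snora16a. Snora20, in the chaperonin gene Tcp1, read 6.22, 6.59 and 7.24 in fresh and 3.50, 3.25 and 3.104 in cultured cells, at -3.40 ± 0.26 (SE). Snora44 and Snora16a, both in the non-coding gene Snhg12, were at -3.36 ± 0.52 (SE) and -3.20 ± 0.24 (SE), and Snora44 lost its call without Cultured 3, at an adjusted p of 0.0637. Snora7a, in Rpl32, read 8.65, 9.39 and 7.997 against 5.90, 5.79 and 5.24, at -3.03 ± 0.34 (SE). In these 4 genes no cultured value reached a fresh one.

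The brightest H/ACA box genes, Snora73a and Snora73b, are copies of the U17 RNA, which acts in cutting the precursor of the small subunit RNA. Snora73a read 9.21, 10.18 and 8.84 in fresh and 8.65, 6.61 and 7.14 in cultured cells, at -1.94 ± 0.54 (SE) with an adjusted p of 0.101. Snora73b read 9.07, 9.54 and 8.67 against 8.41, 6.77 and 6.90, at -1.73 ± 0.44 (SE) with an adjusted p of 0.0766. In both genes Cultured 1 lay just under the fresh values while the other cultured arrays were clearly lower, and neither passed the test. The copies are alike in sequence, so their probe sets may share signal.

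None of the Cajal body RNAs, which guide changes on spliceosomal RNAs, passed the test. Scarna13 read 7.68, 8.91 and 7.58 in fresh and 7.20, 5.75 and 6.06 in cultured cells, at -1.72 ± 0.46 (SE) with an adjusted p of 0.0890. Scarna17 read 6.26, 8.26 and 7.16 against 6.57, 4.85 and 5.67, and its groups overlapped, at -1.53 ± 0.56 (SE) with an adjusted p of 0.203. Scarna8, near background in both groups, was at -0.44 ± 0.15 (SE) with an adjusted p of 0.171.

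Of the 17 members that did not pass, only Snord53 lay above 0, at 0.14 with a 95% interval of -0.47 to 0.74, and Snora2b was at -0.01. Snord42a and Snord42b, both in Rpl23a, were at -1.02 with an interval of -2.15 to 0.11 and -0.84 with an interval of -1.99 to 0.31. Snord49b read 5.82, 7.15 and 7.01 in fresh and 6.37, 6.06 and 5.56 in cultured cells, at -0.66 with an adjusted p of 0.413. Its interval was -1.52 to 0.19. These groups overlapped, and a fall of more than 2-fold lies within the intervals of Snord42a, Snord42b and Snord49b. Snora3, Snora30, Snora41, Snora62, Snora73a, Snora73b, Snord52, Scarna8 and Scarna13 did not pass although their groups did not overlap.

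How many members were called varied with the arrays used: 25 without Fresh 2, 28 without Fresh 3, 24 without Cultured 3 and 44 without Cultured 1, and no member was called higher in any of these fits. Lower calls over all 19938 genes moved with them, at 419, 420, 380 and 1278 in the same order, against 671 with all arrays. Of the 37 called members, 23 kept the call without each array in turn, among them Snord22, Snord15b, Snord14e, Snord61, Snord55, Snord8, Snora20, Snora16a and Snora7a. Besides the genes already described, Snord16a, Snord38a and Snord82 lost it without Fresh 2, Fresh 3, Cultured 2 or Cultured 3, at adjusted p of up to 0.193, 0.133 and 0.165. Snora31 lost it without Fresh 2, Cultured 2 or Cultured 3, at up to 0.165, and Snora23 without any 1 array other than Cultured 1, at up to 0.0882. Snord37 and Snord87 lost it without Fresh 2, Fresh 3 or Cultured 3, at up to 0.0863 and 0.0537. Snora52 lost it without Fresh 2 or Cultured 3 at up to 0.0603, and Snord95 without Fresh 2 or Fresh 3 at up to 0.0574.

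Falls were larger in brighter members, but dim members had less room to fall before background. Fresh means were 3.46 for Snord58b and Snord35b and 3.52 for Scarna8, against 3.23 for background in culture. The part of this limit in the trend was not tested. Over the 54 members the log2 fold change had a Spearman correlation of -0.62 with the mean level over the 6 arrays, given as a description, since the members share arrays and the same values enter both measures. Members with a mean between 6 and 8 had a median of -2.95, and the 726 other genes in that range had -0.53. Of these members 13 of 16 were called lower, and of the other genes 22.2%. Members with a mean between 4 and 5 had a median of -1.67 and the 3392 other genes in that range 0.07. On Cultured 1 the members with a mean between 6 and 8 had a median difference of -2.24 from the fresh mean, while the other genes in that range had 0.11. Within the C/D box class, longer RNAs fell further, with a Spearman correlation of -0.47 with the length of the RefSeq gene over 31 genes. Length in this class runs from 45 to 148 bases, and over all members the correlation was -0.05. Length was not separated from level: the longest C/D box genes, Snord15a, Snord15b, Snord118 and Snord22, had fresh means of 11.87, 14.76, 7.34 and 13.17. The class median of the fresh means was 6.66.

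**Figure D3:**
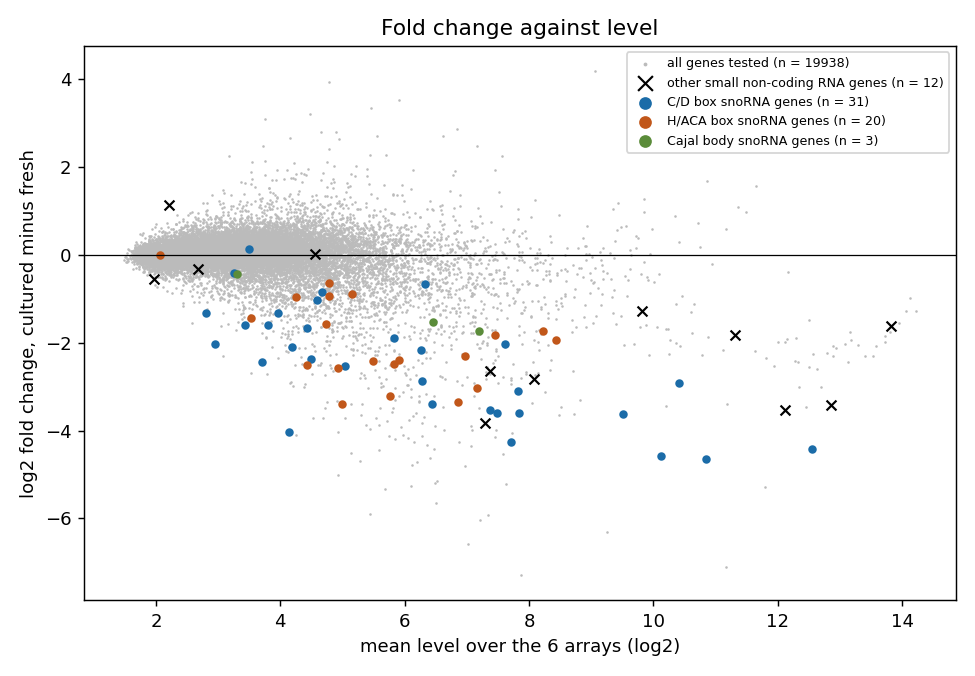
Log2 fold change (cultured minus fresh, y axis) against the mean level over the 6 arrays (log2, x axis) for all 19938 genes tested (grey), the 54 snoRNA genes by class (colours) and 12 other small non-coding RNA genes (crosses). The coloured points lie below 0 except Snord53 at 0.14, and members with a mean between 6 and 8 have a median of -2.95 where other genes have -0.53.

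Most of these RNAs are cut from a host transcript, so each was set beside the gene that contains it. By the RefSeq gene spans of assembly GRCm38.p6, 53 of the 54 members lie within 43 distinct protein-coding or long non-coding genes, the smallest such gene being taken as the host and strand not being used. Of the members 21 lie in ribosomal protein genes, 17 in other protein-coding genes and 15 in long non-coding genes. Their median log2 fold changes were -1.89, -2.43 and -1.94, with 16, 12 and 8 called lower. The classes of host thus differed by less than the spread of the genes within each.

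Transcripts that start with a pyrimidine run, which ties their translation to growth signals, are common among snoRNA hosts. Of the 43 hosts, 32 had an annotated start that could be searched. In 8 of these, the letters CTTTC lie between 10 bases before and 15 bases after the annotated first base. The starts of 6 of these 8 hosts are shown. Those of Rpl27a and Ipo7, hosts of Snora3 and Snora23, are left out. Sequences are from RefSeq on GRCm38.p6, 40 bases before to 20 bases from the start onward, with CTTTC in capitals.
Gas5 (host of Snord47), chr1:161035126-161035185, plus strand: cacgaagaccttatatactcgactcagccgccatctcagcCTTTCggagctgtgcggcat
Snhg12 (host of Snora44 and Snora16a), chr4:132308638-132308697, plus strand: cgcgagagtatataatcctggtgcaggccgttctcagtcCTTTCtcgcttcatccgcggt
Rpl13a (host of Snord33 and Snord35a), chr7:45128726-45128785, minus strand: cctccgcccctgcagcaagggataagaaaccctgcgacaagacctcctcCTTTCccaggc
Rplp2 (host of Snora52), chr7:141447611-141447670, plus strand: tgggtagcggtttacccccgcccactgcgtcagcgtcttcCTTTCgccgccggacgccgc
Rack1 (host of Snord95 and Snord96a), chr11:48800320-48800379, plus strand: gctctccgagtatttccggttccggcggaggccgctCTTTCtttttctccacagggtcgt
2410006H16Rik (host of Snord49a and Snord49b), chr11:62602837-62602896, plus strand: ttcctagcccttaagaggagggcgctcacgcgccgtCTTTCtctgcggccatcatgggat
In Gas5 and Rplp2 the letters begin at the annotated first base. The letters, chosen after these starts were seen, were in 8 of the 34 windows of hosts, or 23.5%, and in 3.105% of all 32851 windows. Their reverse complement, GAAAG, was in 2.94% of host windows and 3.00% of all windows. Since the letters were picked from these starts, the higher share among hosts is no test, and the reverse complement does not correct for that choice. A match is a description of the letters and not of a working element.

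For 28 members the host had a probe set of its own, over 24 distinct hosts. The median log2 fold change of these hosts was -1.52, with 22 of 24 below 0, of which 2 fell, Hspa8 at -3.40 and Rps3a1 at -2.04, and none rose. Hspa8, the constitutive heat shock protein and host of Snord14e, lost its call without Fresh 1, Fresh 2, Fresh 3 or Cultured 3 (adjusted p up to 0.0793), and Rps3a1 without any 1 array other than Cultured 1 (up to 0.172). Of the 28 members 16 fell while the host did not pass, 3 fell together with the host, and in 9 neither passed. These counts rested on Cultured 1: without it 19 of 24 hosts fell, 20 members fell together with the host and 2 fell while the host did not pass. With array weights 13 hosts fell, under quantile normalization and under cyclic loess 7 each, and none rose in any of these fits. A member was lower than its host in 20 of 28 cases, with a median difference of -0.43, which was -0.22 without Cultured 1 and -0.70 without Cultured 2.

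The arrays differed in this comparison. On Cultured 1 the hosts were close to the fresh mean, with a median difference of -0.14, while their snoRNA genes were at -1.56, and 25 of 28 lay further down than the host. On Cultured 2 the medians were -2.38 and -2.60, with 12 of 28 below the host, and on Cultured 3 they were -1.78 and -2.40, with 19 of 28. Rps12, host of Snora33, read 14.71, 14.68 and 14.72 in fresh cells and 14.68, 11.37 and 12.15 in cultured cells. Snora33 itself read 6.77, 6.34 and 6.99 against 4.89, 3.89 and 4.05, so that it was low on Cultured 1 where Rps12 was not. Rpl23, at 14.68, 14.68 and 14.67 in fresh cells and 14.62, 10.95 and 11.58 in culture, stood likewise beside Snora21, at 6.18, 6.64 and 5.84 against 4.26, 3.64 and 3.04. Rps12 and Rpl23 read close to the highest levels of the arrays in fresh cells, where differences are compressed, and with cyclic loess their log2 fold changes were 0.40 and 0.020.

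**Figure D4:**
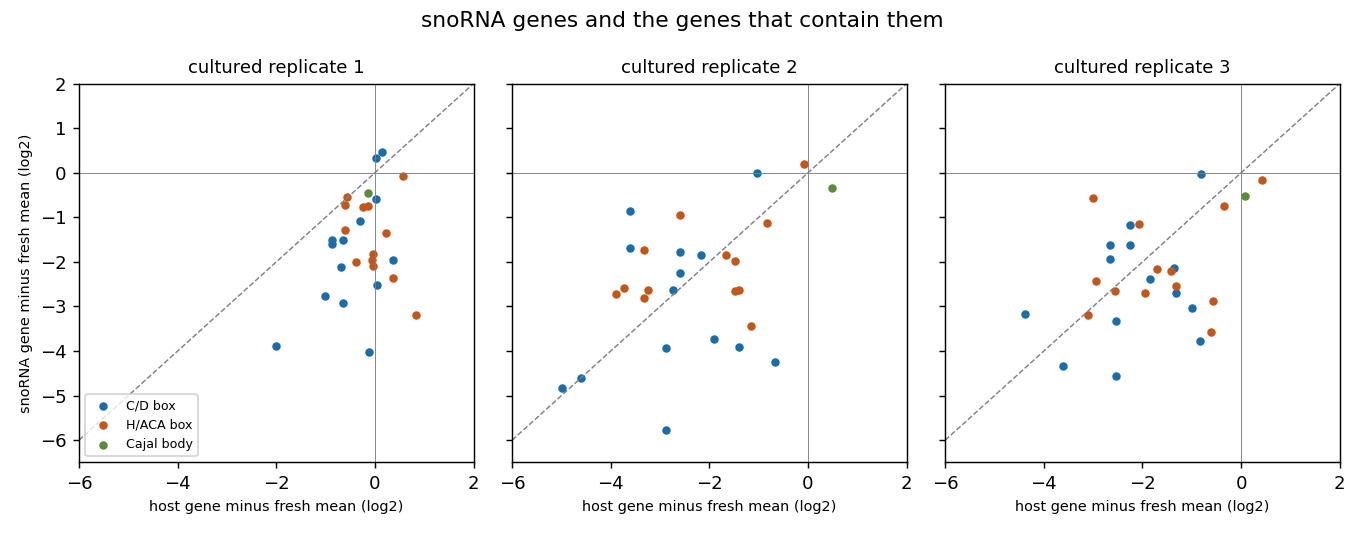
Difference from the fresh mean (log2) of 28 snoRNA genes (y axis) and of the gene that contains each (x axis) on the 3 cultured arrays; the dashed line marks equal differences. On Cultured 1 the hosts have a median of -0.14 and 25 of 28 points lie under the line.

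Further scaling of the arrays moved the host median more than the member median. After quantile normalization the median of the hosts was -0.48 and that of the 54 members -1.85, and with cyclic loess they were -0.42 and -1.95. Under both, all 37 called members kept the call and 5 more passed, none of them upward. Over the 28 members the log2 fold changes of member and host had a Spearman correlation of 0.29, a description over genes that share arrays and, for 4 pairs of members, a host. Tcp1 was at -0.31 beside Snora20 at -3.40. Under quantile normalization Tcp1 was at 0.09, so that its direction is not settled.

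Members of the same host did not always move alike. Among the 10 hosts with 2 members, both members fell in 7, 1 fell in 1 host, and neither passed in 2. Among these members, Snora44, Snord15a, Snord33, Snord82 and Snord95 were some that lost the call without a single array, as given above. Snord49a and Snord49b lie in 2410006H16Rik, and Snord49a read 7.74, 8.30 and 8.36 in fresh and 4.57, 4.59 and 5.07 in cultured cells. It fell by 3.39 ± 0.22 (SE) on the log2 scale, 2.73 more than Snord49b, whose values are given with the genes that did not pass. In Rpl13a, Snord33 at -4.59 and Snord35a at -2.36 differed by 2.22. Snord35a went from a fresh mean of 5.68 to 3.32, just above background in culture, and Snord33 from 12.41 to 7.82. Snord35a thus had little room to fall further. In Snhg12 and Rps3a1 the 2 members lay within 0.221 of each other. These gaps were not tested.

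The genes of the proteins that carry snoRNAs, measured as RNA, did not pass the test. Of the 4 C/D core proteins, Nop58 had a log2 fold change of -2.09 (adjusted p 0.0597), Snu13 of -1.54 (adjusted p 0.110), Nop56 of -0.95 and the methylase Fbl of -0.41. Their median was -1.24. In 2 of the 4, Nop58 and Snu13, all cultured values lay below all fresh values, against 10.3% of all genes tested. Nop58 read 7.85, 5.80 and 6.08 on Cultured 1, 2 and 3, and Snu13 read 9.43, 7.61 and 7.74. Of the 4 H/ACA core proteins, Nop10 had -1.05 (adjusted p 0.235), and Nhp2, Gar1 and the pseudouridine synthase Dkc1 lay between -0.18 and 0.45. None of 13 genes of snoRNA-protein assembly, 15 of snoRNA trimming and decay, 6 of Cajal bodies and 14 of ribosomal RNA transcription passed in either direction, with medians between -0.065 and 0.12. By list in that order, the largest change was that of Phax at -0.76, Exosc9 at 0.97, Ice1 at -0.43 and Polr1d at -1.39. Taf1d, of the last list, was at 1.28. Of 8 measured non-coding genes listed as snoRNA or microRNA hosts, Meg3 fell, from a mean of 7.90 to 4.56 at -3.35 with an adjusted p of 0.000366. Gas5 read 14.21, 14.17 and 14.17 in fresh and 13.18, 9.19 and 9.80 in cultured cells, at -3.46 with an adjusted p of 0.0837. Its cultured values were all below the fresh ones but had an SD of 2.15.

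Other small non-coding RNAs moved in part as the snoRNA genes did. Of 12 such genes with a symbol of the Rnu, Rn7, Rny, Rmrp, Rpph1, Terc or vault kind, 6 fell and none rose. Rnu12, a minor spliceosome RNA, was at -3.83, and the ribonuclease RNAs Rmrp and Rpph1 were at -3.54 and -3.41. Rpph1 had a fresh mean of 14.57, near the highest levels of the fresh arrays, so that its fall can be understated. Its fall can also be overstated, since the highest levels were lower on Cultured 2 and 3. The vault RNA Vaultrc5 was at -2.82 and the Ro-binding RNA Rny1 at -1.28. The U3 RNA Rnu3a, itself a C/D box RNA outside the naming rule, was at -2.64. Rny1 lost its call without Fresh 3 or Cultured 3 (adjusted p up to 0.0669). After quantile normalization Rmrp, Rpph1 and Rny1 did not pass, at -1.41, -1.40 and -0.14, while Rnu12, Rnu3a and Vaultrc5 did. The telomerase RNA Terc, which carries an H/ACA domain, was at 4.55 in fresh and 4.58 in cultured cells. A fall was not confined to small RNAs, since the listed long non-coding RNA Malat1 went from a mean of 8.72 to 5.90. Its log2 fold change was -2.82, with a limma adjusted p of 0.00136. Of 291 microRNA genes 1 fell and 1 rose, with a median of 0.06, where 3.37% of all genes tested were called lower and 0.953% higher. Most of the microRNA genes, 196 of 291, were within background in both groups, where a fall could not be seen. The 88 microRNA genes above background in fresh cells stood at medians of 0.20, 0.12 and 0.26 on Cultured 1, 2 and 3, relative to the fresh mean.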

How the data were processed

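RNA was extracted with Trizol and labelled with biotin by a whole-transcript kit, per the labels' protocols. The values deposited by the authors are log2 expression of 35556 probe sets on 6 arrays. Per the submitters' processing notes, RMA and oligo were used; for versions and genome build, the sources used here give none. RMA as commonly run normalizes arrays to each other, and it compresses differences near background. The deposited arrays did not share 1 range. The highest gene level was 14.88, 14.84 and 14.85 on Fresh 1, 2 and 3. On Cultured 1, 2 and 3 it was 14.83, 12.17 and 13.92.

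Names of probe sets came from the platform annotation and were updated by gene identifier to GRCm38.p6 (21698 of 21789 single-gene probe sets matched). The 1621 probe sets with several genes were left out, 41 of them with a snoRNA symbol. The probe set with the highest mean was kept per gene. limma 3.58.1 in R 4.3.3 (lmFit, eBayes) was fitted to all 19938 genes with group as the only term, and Benjamini-Hochberg adjustment ran over all genes. Intervals are 95% intervals of the limma coefficient. The fit was tested on simulated data. Hosts were found by RefSeq gene span without strand, which the gene table does not hold, although the same strand had been planned. Class medians and host differences carry no test. The number of arrays limits the precision.

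The members and lists were chosen with earlier results of these data known. Named genes are called members, the extremes of each class, hosts with their members, and list genes past the test or with the largest changes; Terc, Rn7sk and other small RNAs were added with values known. Snora20, Snord61 and other pairs with a host were singled out after their values were seen. No snoRNA sequence is printed. Alternatives were a replicate block, 2 normalizations, a filter, 2 probe set rules, a trended prior, array weights and leaving out each array.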

Additional observations from a re-analysis of the deposited data

How the results depend on the processing

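Over 14 other settings, no member was called higher. The count of 37 called members was 24 to 44 when an array was left out, and 32 to 43 otherwise. The labels do not say whether the replicate numbers pair the arrays. Correlations of same-numbered deviations were -0.09, -0.14 and 0.03, which with 3 arrays per group cannot decide it. With the replicate block 32 members were called. The H/ACA box median of -2.12 was -1.70 after quantile normalization and -1.77 with cyclic loess, and ran from -2.55 to -1.89 with an array left out. The C/D box median ran from -2.67 to -2.02 and the Cajal body median from -1.97 to -1.01 with an array left out. The median difference between members and hosts, -0.43, was -1.13 after quantile normalization and -1.29 with cyclic loess. With an array left out, the count of hosts that fell, 2, was between 0 and 19. On Cultured 2 the median difference of members from the fresh mean, -2.52, was -1.97 and -1.89 under these. By their log2 fold changes, 53 of 54 members were below 0 under either normalization.

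Some values near 0 changed sign. Snord53 was at -0.0040 with array weights and between -0.13 (without Fresh 1; -0.024 without Cultured 1) and 0.35 when an array was left out. With an array left out, Snora2b ran from -0.11 to 0.074 (without Fresh 3), Terc from -0.18 (without Cultured 3) to 0.17, and Tcp1 from -0.88 to 0.11 (without Cultured 2); with array weights Terc was at 0.24. After quantile normalization Tcp1 was at 0.092 and Rn7sk, at -1.61 as deposited, at 0.070, while with cyclic loess Rn7sk was at 0.79, Rpl23 at 0.020 and Rps12 at 0.40. The cause was not tested. Over all genes, 671 lower and 190 higher calls became 925 lower and 586 higher under quantile normalization, 1035 lower and 457 higher under cyclic loess, and 1157 lower and 585 higher under array weights. Signal within background limits 12 members on the cultured arrays.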

Other observations

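Probe sets that the annotation gives to a snoRNA and another gene at once were kept out of the comparison. Of 41 such probe sets, 24 are of the imprinted Snord116 cluster, a set of near-identical C/D box copies expressed mainly in brain. Their levels were near 1.9 in both groups, 1.87 in fresh and 1.96 in cultured cells for the value that recurs among them, within background. The other 17 probe sets include some within background in both groups, such as those given to Snora19 and Snora36b, and pairs that hold identical values. The one shared by Snord32a and Rpl13a went from 12.41 to 6.60, a log2 difference of -5.81, beyond that of any single-gene member. Snord34, with the same host, went from 9.25 to 6.44, and those shared by Snord14c, Snord14d and Hspa8 from 10.76 to 7.19 and from 10.79 to 7.18. A probe set given to Snora34 and Mir1291, where the microRNA lies within the snoRNA, went from 5.65 to 2.85. These values carry no test here, and the share of signal from each gene of a probe set is unknown.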
